A study of Liolophura hirtosa with 16 samples.

Results

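This account concerns 11 of the 493 chiton sequences on a custom array. They were lower in the immature section of the radula than in the iron-deposited and the calcium-deposited sections, and their iron and calcium means lay near each other. They were chosen by a rule on the authors' table of values, after log2 transformation and quantile normalization of the 16 arrays and averaging of the probes of each sequence. The rule asked that the iron mean and the calcium mean each lie 0.4 or more above the immature mean and differ from each other by less than 0.5 on the log2 scale. Of the 493 sequences, 56 were 0.4 or more higher in iron, 28 of these were also 0.4 or more higher in calcium, and 13 of those 28 had iron and calcium within 0.5 of each other. The rule then dropped sequences whose foot muscle mean was 0.5 or more above every section, which removed Contig[0113] and Plate-B-E3-5-SMART. A second exclusion removed none. It was for sequences 0.5 or more above foot muscle in every section whose sections lay within 1 of each other.

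The animal is the chiton Acanthopleura hirtosa, recorded under the organism name Liolophura hirtosa, and all animals were wild adults. The radula of 12 animals was cut into an immature, an iron-depositing and a calcium-depositing section, and foot muscle of the same animals was taken as well. The sample labels call the radula tissue radula sac. RNA of 3 animals was pooled for each array, with 4 arrays for each of the 4 tissues, hybridised in 1 colour. A value therefore averages animals and all cell types of a section, and fewer cells of a type cannot be told apart from less RNA per cell.

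A chiton scrapes rock with its radula, a ribbon of tooth rows that grows from the rear and moves forward, so that position along it follows the age of a tooth. New teeth are an organic scaffold of chitin and protein. The epithelium around them then delivers iron, which ends as magnetite in the tooth cap, and the core is filled later, in this genus with calcium phosphate. The files gave no gene name for any probe, so no function is attached to a sequence here, and the labelled tissues could not be checked against marker genes.

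The identity of 4 arrays was disputed between the deposited sources. In the value table, 12 columns were constant multiples of the scanner file of the same sample. The columns for immature replicates 2 and 4 matched the scanner files of calcium replicates 2 and 4, and the reverse. The value table, on which the rule rests, is used below, where each of these 4 columns resembled its labelled section (correlations of 0.957 to 0.988 with undisputed columns) more than the section it disputes (0.717 to 0.770). Without the 4 arrays, 12 sequences met the rule, 10 of them among the 11. With each scanner file under the sample that carries it, 0 sequences met the rule. For PlateD-E11-5-SMART the range within the immature group was then 3.08 on the log2 scale and within the calcium group 3.51, against 0.36 in iron and 0.03 in foot muscle. Every rise described here thus rests on the value table's assignment or on the 12 undisputed arrays.

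With no gene names, the probe sequences are the identity of these transcripts. For 10 of the 11 members the probe whose rise lay nearest the median of its probes is shown 5′ to 3′, from the scanner files, with its bases counted within the chiton sequence and not in a genome. The 3 members that were higher still in calcium than in iron come first.
PlateD-E11-5-SMART, bases 405 to 439: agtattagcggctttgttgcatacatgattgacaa
Plate-B-C9-5-SMART, bases 77 to 111: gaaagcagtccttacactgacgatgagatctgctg
PlateB-E7-5-SMART, bases 25 to 59: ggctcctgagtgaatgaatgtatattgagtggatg
The 2 members whose iron and calcium levels did not pass the test for a difference were G-C9-5-SMART and PlateA-G3-5-SMART.
G-C9-5-SMART, bases 59 to 93: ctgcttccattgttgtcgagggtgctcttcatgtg
PlateA-G3-5-SMART, bases 121 to 155: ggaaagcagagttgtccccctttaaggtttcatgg
The 6 remaining members were partly lower again in calcium, and 5 of them are shown.
Contig[0205], bases 257 to 291: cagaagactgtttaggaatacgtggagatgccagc
plateD-D12-5SMART-primer, bases 451 to 487: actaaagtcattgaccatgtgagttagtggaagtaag
Contig[0143], bases 297 to 332: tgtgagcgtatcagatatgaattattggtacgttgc
plateD-B6-5SMART-primer, bases 39 to 77: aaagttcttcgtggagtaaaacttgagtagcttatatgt
Plate-D-E3-5-SMART, bases 81 to 115: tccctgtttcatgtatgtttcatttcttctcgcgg

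Levels are log2 values of a probe's foreground intensity over the mean of its array, after quantile normalization, averaged over the probes of a sequence. A level of 0 is the array mean, and because probes differ in brightness, levels are compared between tissues and not between sequences. No background was measured, so differences between dim values understate those in RNA to a degree that cannot be read from the files. Values are listed for replicates 1 to 4, of which numbers 2 and 4 are the disputed arrays in the immature and calcium groups.

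**Figure D1:**
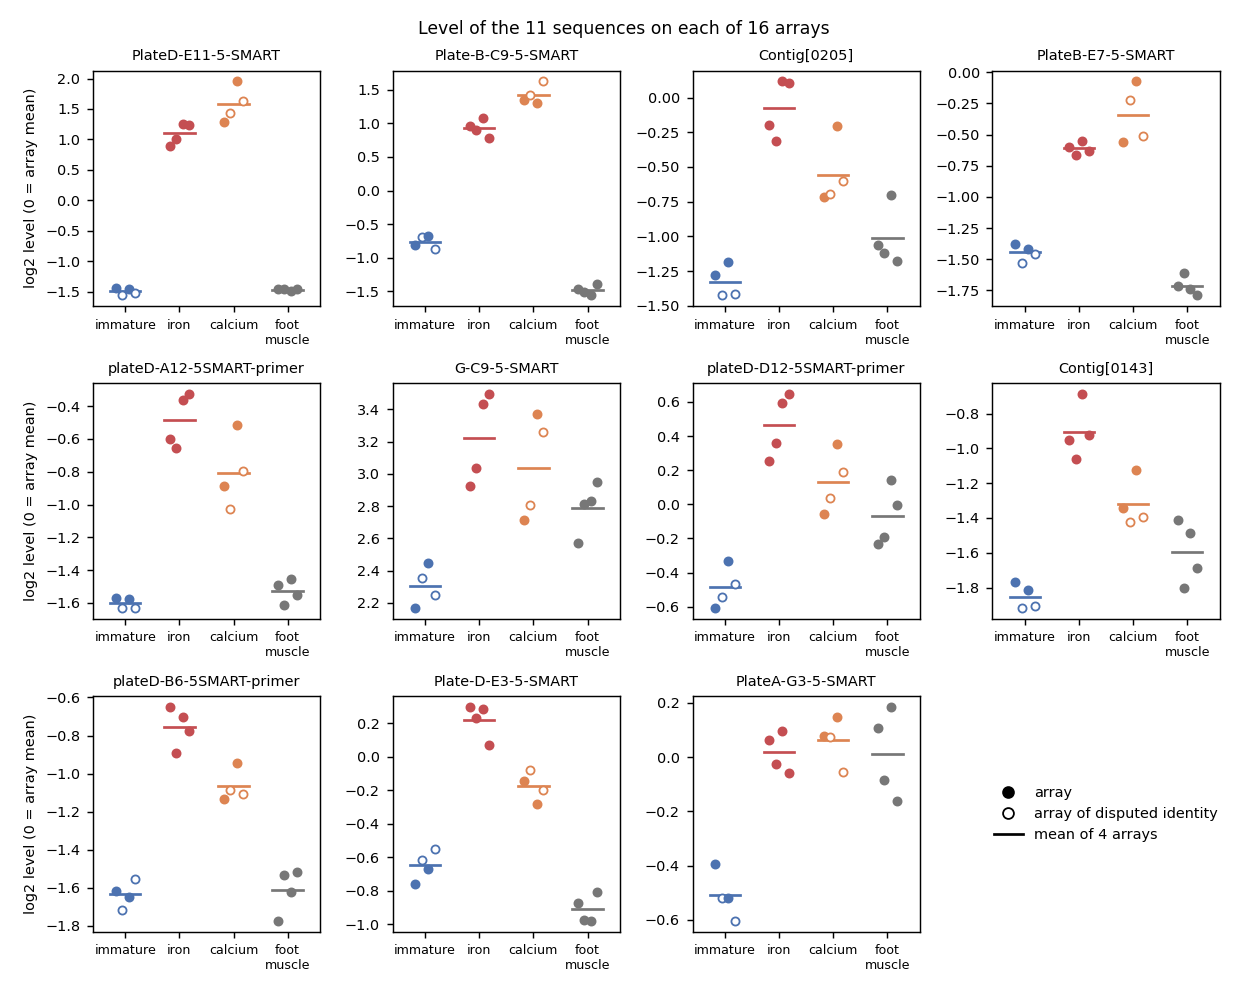
Log2 level of each of the 11 sequences (vertical axis, 0 is the array mean, scale set per panel) on the 4 arrays of immature, iron, calcium and foot muscle tissue (horizontal axis), with open circles for arrays of disputed identity and lines for means. In every panel the 4 iron and the 4 calcium points lie above the 4 immature points, whereas foot muscle ranges from below immature (Plate-B-C9-5-SMART) to the iron level (PlateA-G3-5-SMART).

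In all 11 members the 4 iron arrays lay above the 4 immature arrays, and so did the 4 calcium arrays. Over all 493 sequences this held for 18.1% between iron and immature teeth and for 24.5% between calcium and immature teeth. In a linear model with moderated variances (limma) over all 493 sequences, a sequence was called where its Benjamini-Hochberg adjusted p was under 0.05. Of the 11 members, 11 were called higher in iron than in immature teeth, where 17.2% of all sequences were, and 11 higher in calcium than in immature teeth, where 24.5% were. These contrasts chose the members, so the counts describe them and support nothing. The median difference of the members was 0.94 for iron and 0.73 for calcium on the log2 scale, beside -0.01 and 0.02 over all sequences. Without the 4 disputed arrays all 11 were still called in both comparisons, with differences of 0.47 to 2.51 in iron and 0.50 to 3.02 in calcium. With median scaling 10 were called in iron and 8 in calcium, and with 75th percentile scaling 10 in each. G-C9-5-SMART was not called in either section with these scalings, and Plate-D-E3-5-SMART was not called in calcium with median scaling.

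PlateD-E11-5-SMART had the widest rise among the 11. Its level was -1.44, -1.56, -1.45 and -1.52 in immature arrays, 0.89, 1.0, 1.25 and 1.24 in iron arrays, 1.29, 1.43, 1.95 and 1.63 in calcium arrays, and -1.46, -1.45, -1.49 and -1.46 in foot muscle arrays. No iron array came within 2 units of an immature or foot muscle array, and the 4 calcium arrays lay above the 4 iron arrays. Its level was 6.02-fold higher in iron than in immature teeth (log2 2.59, with 1.10 ± 0.18 against -1.49 ± 0.06, SD, n = 4 each) and 8.37-fold higher in calcium than in immature teeth (log2 3.06, calcium at 1.57 ± 0.29). In foot muscle it sat at the immature level (-1.47 ± 0.02). Without the disputed arrays the folds were 5.70 and 8.13, and the iron and calcium means then differed by 0.51, just past the limit of the rule.

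The gain of PlateD-E11-5-SMART differed widely between its 5 probes. The probe at bases 246 to 282 was 3.74 higher in iron than in immature teeth on the log2 scale, and those at 289 to 323, 405 to 439 and 463 to 497 were 3.53, 3.18 and 2.09 higher. The probe at bases 430 to 464 was only 0.40 higher, although it shares its first 10 bases with the end of its neighbour, as the capitals show.
PlateD-E11-5-SMART, bases 405 to 439: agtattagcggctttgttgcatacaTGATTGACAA
PlateD-E11-5-SMART, bases 430 to 464: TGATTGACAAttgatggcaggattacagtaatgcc
In foreground units, the probe at 405 to 439 averaged 3342 in iron and 329 in immature arrays, and the probe at 430 to 464 averaged 368 in iron and 263 in immature arrays.

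Plate-B-C9-5-SMART was also highest in calcium, and of the 11 it had the widest gap between immature teeth and foot muscle, 0.72 on the log2 scale. Its level was -0.81, -0.69, -0.68 and -0.87 in immature arrays, 0.96, 0.90, 1.09 and 0.78 in iron arrays, 1.35, 1.42, 1.31 and 1.63 in calcium arrays, and -1.47, -1.51, -1.56 and -1.40 in foot muscle arrays. The 4 tissues did not overlap and stood in the order foot muscle, immature, iron, calcium. Iron was 3.24-fold and calcium 4.57-fold above immature teeth, and immature teeth were themselves 1.65-fold above foot muscle (-0.76 ± 0.09 against -1.49 ± 0.07, SD, n = 4 each). All 4 probes rose by 1.32 to 2.13 in iron and by 1.92 to 2.49 in calcium, a narrower spread than in PlateD-E11-5-SMART.

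PlateB-E7-5-SMART followed the same order on a smaller scale. Its level was -1.38, -1.53, -1.42 and -1.45 in immature arrays, -0.60, -0.66, -0.55 and -0.63 in iron arrays, -0.56, -0.22, -0.07 and -0.51 in calcium arrays, and -1.71, -1.61, -1.73 and -1.79 in foot muscle arrays. The calcium arrays were the most scattered, with replicate 1 inside the range of the iron arrays. Iron was 1.78-fold and calcium 2.15-fold above immature teeth, and 3 of its 4 probes rose by over 0.9 in iron, while the probe at bases 101 to 135 differed by 0.26.

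In the reported fit the members called lower again in calcium formed the larger group, 6 against 3 called higher. Without the disputed arrays 2 were called lower and 3 higher, although the calcium mean still lay below iron in 7 members and above it in 4. Contig[0205] had -1.27, -1.42, -1.18 and -1.42 in immature arrays, -0.20, -0.31, 0.12 and 0.11 in iron arrays, -0.72, -0.69, -0.21 and -0.60 in calcium arrays, and -1.06, -1.12, -0.70 and -1.18 in foot muscle arrays. Calcium replicate 3 reached the iron range, and foot muscle replicate 3 reached the calcium range. Iron was 2.38-fold above immature teeth and calcium 1.71-fold, and each of its 5 probes rose in iron, by 0.75 to 1.80. The probe at bases 407 to 441 had the widest gap between the late sections, at 0.94 in iron and 0.03 in calcium.

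The clone plateD-A12-5SMART-primer had -1.57, -1.63, -1.58 and -1.63 in immature arrays, -0.60, -0.66, -0.36 and -0.33 in iron arrays, -0.89, -1.03, -0.52 and -0.79 in calcium arrays, and -1.49, -1.61, -1.46 and -1.55 in foot muscle arrays. Its immature arrays were the tightest of its 4 groups (SD 0.03), and foot muscle overlapped them. Iron was 2.17-fold and calcium 1.74-fold above immature teeth, and its 4 probes were 0.67 to 1.52 higher in iron.

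Plate-D-E3-5-SMART was lower in foot muscle than in any radula section. It had -0.76, -0.61, -0.67 and -0.55 in immature arrays, 0.30, 0.24, 0.29 and 0.07 in iron arrays, -0.14, -0.08, -0.28 and -0.20 in calcium arrays, and -0.87, -0.98, -0.98 and -0.81 in foot muscle arrays. The 4 tissues did not overlap. Iron was 1.83-fold and calcium 1.39-fold above immature teeth, and its calcium difference of 0.47 was the one nearest the limit of 0.4 among the 11.

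The other 3 of this group were plateD-D12-5SMART-primer, Contig[0143] and plateD-B6-5SMART-primer. Clone plateD-D12-5SMART-primer averaged -0.49 ± 0.12 in immature, 0.46 ± 0.19 in iron, 0.13 ± 0.18 in calcium and -0.07 ± 0.17 in foot muscle arrays (SD, n = 4 each). Contig[0143] averaged -1.85 ± 0.07 in immature, -0.91 ± 0.16 in iron, -1.32 ± 0.14 in calcium and -1.60 ± 0.18 in foot muscle arrays. Clone plateD-B6-5SMART-primer averaged -1.63 ± 0.07 in immature, -0.76 ± 0.11 in iron, -1.07 ± 0.08 in calcium and -1.61 ± 0.12 in foot muscle arrays. Their iron rises were alike in size at 1.93-, 1.92- and 1.84-fold, and their calcium levels were 1.53-, 1.45- and 1.48-fold above immature teeth.

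G-C9-5-SMART lay above the array mean in every tissue, and its rise moved with how the arrays were scaled. It had 2.17, 2.36, 2.45 and 2.25 in immature arrays, 2.92, 3.03, 3.43 and 3.49 in iron arrays, 2.71, 2.81, 3.37 and 3.26 in calcium arrays, and 2.57, 2.81, 2.83 and 2.95 in foot muscle arrays. Replicates 3 and 4 were higher than replicates 1 and 2 in both iron and calcium arrays, so that the spread followed the replicate number. The median of the deposited values was 0.251 and 0.295 on iron replicates 3 and 4, beside 0.437 and 0.408 on iron replicates 1 and 2. It was 0.247 and 0.304 on calcium replicates 3 and 4, beside 0.457 and 0.456 on calcium replicates 1 and 2, and its part in the spread was not tested. Iron was 1.89-fold and calcium 1.66-fold above immature teeth. With cyclic loess in place of quantile normalization, its calcium difference from immature teeth was -0.02 on the log2 scale, against 0.73. With median scaling its differences from immature teeth were 0.70 in iron and 0.41 in calcium, and neither passed the test.

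Probes of G-C9-5-SMART shared long runs with probes of other sequences, which was true of no other member at 14 or more bases on either strand. The probe at bases 110 to 144 shares 28 bases with a probe of Contig[0085] and 19 with a probe of PlateC-G11-5-SMART, each shown in capitals.
G-C9-5-SMART, bases 110 to 144: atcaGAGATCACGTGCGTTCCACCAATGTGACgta
Contig[0085], bases 366 to 400: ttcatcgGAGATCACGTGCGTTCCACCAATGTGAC
PlateC-G11-5-SMART, bases 46 to 80: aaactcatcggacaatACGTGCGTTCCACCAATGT
The Contig[0085] probe was 0.75 higher in iron and 1.2 higher in calcium than in immature teeth on the log2 scale. Over its 4 probes, Contig[0085] was 0.22 and 0.31 higher. The PlateC-G11-5-SMART probe was 0.21 and 0.11 higher. Whether the probes of G-C9-5-SMART also bound RNA of these sequences, or their probes bound RNA of G-C9-5-SMART, was not tested. The G-C9-5-SMART probe at bases 59 to 93, which shares no such run, was 0.84 higher in iron. The other 3 probes of G-C9-5-SMART were 0.88 to 1.0 higher. Of these, the probe at bases 128 to 162, 0.88 higher, had an SD of 0.52 in immature and 0.87 in iron arrays. Tested singly, it was called higher neither in iron nor in calcium.

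PlateA-G3-5-SMART had the smallest mean rise of the 11 and the smallest difference between iron and calcium. It had -0.39, -0.52, -0.52 and -0.60 in immature arrays, 0.06, -0.03, 0.10 and -0.06 in iron arrays, 0.08, 0.07, 0.15 and -0.05 in calcium arrays, and 0.11, -0.08, 0.18 and -0.16 in foot muscle arrays. The immature arrays stood below all others, and iron, calcium and foot muscle overlapped. Iron was 1.44-fold and calcium 1.49-fold above immature teeth, and immature teeth stood at 0.697 of the foot muscle level.

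**Figure D2:**
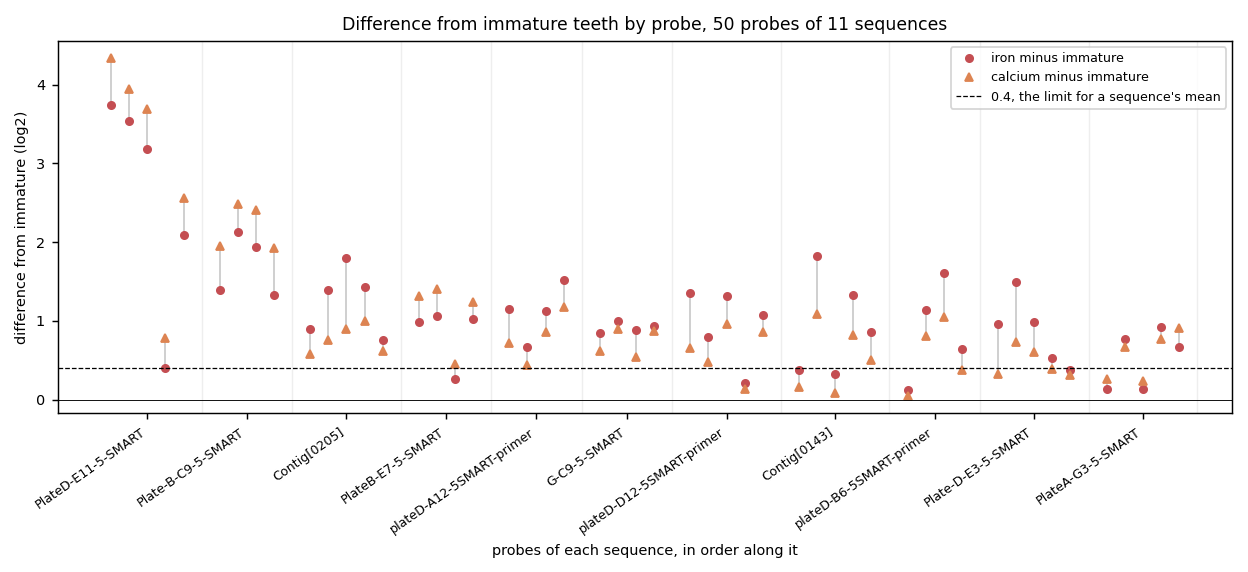
Difference from immature teeth (vertical axis, log2) in iron (circles) and calcium (triangles) for each of the 50 probes, in their order along the 11 sequences (horizontal axis). All 50 points of each kind lie above 0, and triangles lie above circles throughout PlateD-E11-5-SMART, Plate-B-C9-5-SMART and PlateB-E7-5-SMART.

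All 50 probes of the members were higher in iron than in immature teeth, beside 48.5% of all probes on the array. All 50 were also higher in calcium, beside 58.3% of all probes, and 39.6% of all probes were higher in both. Tested singly, 43 of the 50 were called higher in iron, where 12.6% of all probes were, and 40 higher in calcium, where 15.8% were. The means over these probes chose the members, so this too is a description. Probes of a sequence share their transcript, and 13 neighbouring pairs overlap, so they do not count as replicates.

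Of the 50 probes, 9 were less than 0.4 higher in iron. They belonged to 6 members with 1 or 2 such probes each, and to PlateD-E11-5-SMART with 1. These 9 were dim, with levels in iron of at most -1.03 and a median of -1.63. The other probes of the members had a median of 0.32 in iron and a lowest level of -1.38. In immature arrays the medians were -1.81 for the 9 and -1.16 for the others. Since no background was subtracted, how much of the difference between probes lies in the RNA and how much in the probe was not tested. With a model-based background subtraction (normexp) the members' iron rises ranged from 0.62 to 3.12, beside 0.53 to 2.59 without it. PlateD-E11-5-SMART then reached 8.70-fold in iron and 12.5-fold in calcium.

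**Figure D3:**
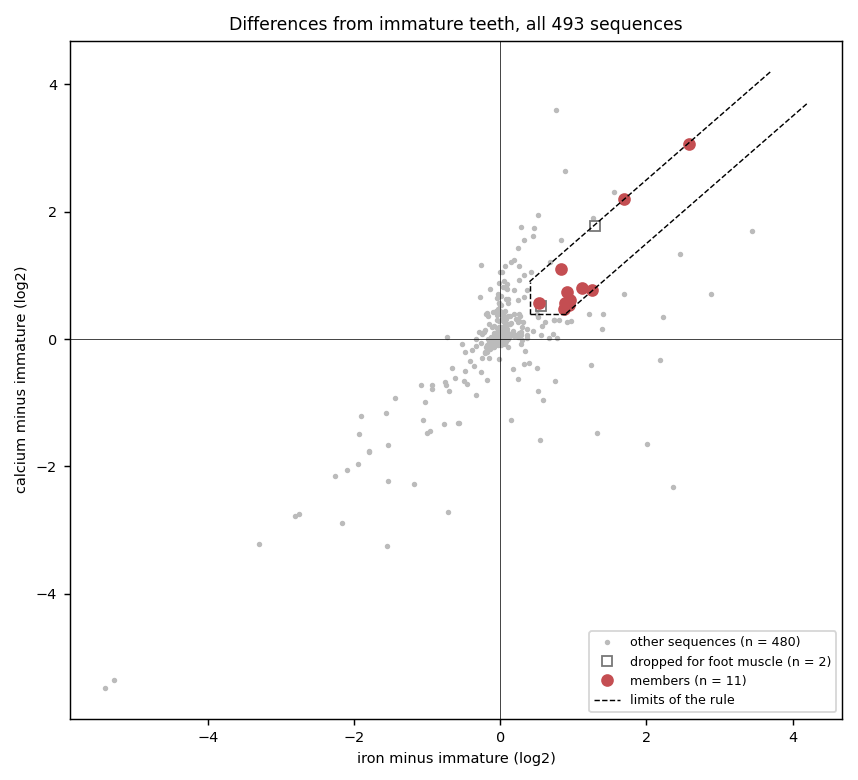
Calcium minus immature (vertical axis, log2) against iron minus immature (horizontal axis, log2) for all 493 sequences, with the 11 members in red, the 2 sequences dropped for foot muscle as open squares and the limits of the rule dashed. All members but 2 lie between 0.53 and 1.25 for iron and between 0.47 and 1.10 for calcium, and PlateD-E11-5-SMART and Plate-B-C9-5-SMART lie apart, near the upper limit.

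All 11 members stayed above immature teeth in calcium, and whether calcium lay above or below iron depended on the member. Between calcium and iron 9 of the 11 were called in either direction, where 33.7% of all sequences were. Of these, 3 were called higher in calcium than in iron, where 19.7% of all sequences were, and 6 were called lower, where 14% were. The 4 calcium arrays lay above the 4 iron arrays in 2 members, PlateD-E11-5-SMART and Plate-B-C9-5-SMART, where they did in 19.1% of all sequences. They lay below the 4 iron arrays in 3, Contig[0143], plateD-B6-5SMART-primer and Plate-D-E3-5-SMART, where they did in 12.8%. The rule used this contrast, and it bounded the difference at 0.5, so the counts describe the members. Those higher were PlateD-E11-5-SMART by 0.48, Plate-B-C9-5-SMART by 0.49 and PlateB-E7-5-SMART by 0.27. Those lower fell by 0.48 in Contig[0205], 0.41 in Contig[0143], 0.40 in Plate-D-E3-5-SMART, 0.33 in plateD-D12-5SMART-primer, 0.32 in plateD-A12-5SMART-primer and 0.31 in plateD-B6-5SMART-primer. For G-C9-5-SMART and PlateA-G3-5-SMART the differences of -0.18 and 0.04 did not pass the test.

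In the 9 members called between iron and calcium, the probes of a member shared the direction. In the 3 called higher in calcium, 13 of 13 probes were higher there, and in the 6 called lower, 28 of 28 were lower. The calls rest on the means of these same probes, so this describes the members. In PlateA-G3-5-SMART, which was not called, 3 of 5 probes were higher in calcium, and in G-C9-5-SMART 0 of 4 were. The direction was also the same within each replicate number. Calcium was below iron within each of the 4 numbers in 7 members and above it within each in 4. Among these 4, the smallest such difference in PlateA-G3-5-SMART was only 0.0052. The share of all sequences with the same direction within every number was not counted, and numbers 2 and 4 include disputed calcium arrays. The rule used the iron and calcium means, so this too is a description. The calls themselves were less stable. Without the disputed arrays 5 of the 9 remained, 3 higher and 2 lower. With median scaling 2 remained, 0 higher and 2 lower. With 75th percentile scaling 1 was called higher and 1 lower, and without further scaling 1 higher and 2 lower. Cyclic loess gave 1 higher and 6 lower, 6 of these calls being among the 9. The difference of PlateA-G3-5-SMART turned to -0.04 with cyclic loess. The label of a set that stays up thus covers 6 sequences that were called lower again after iron, with calcium still 0.47 to 0.80 above immature teeth where iron was 0.87 to 1.25 above.

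Several members lay close to the limits that chose them. Plate-B-C9-5-SMART and Contig[0205] were nearest inside the limit of 0.5 between iron and calcium, at 0.49 and -0.48. Contig[0016] and Contig[0159] were nearest outside it, at -0.52 and 0.53, with rises otherwise inside the rule. PlateA-G3-5-SMART (0.53) and PlateB-E7-5-SMART (0.83) had the smallest iron rises inside, and PlateC-F6-5-SMART (0.37) and Contig[0011] (0.33) were nearest below 0.4. For calcium, Plate-D-E3-5-SMART (0.47) and Contig[0143] (0.53) were nearest inside, and Contig[0013] (0.39) and PlateA-A9-5-SMART (0.30) nearest outside. For foot muscle, PlateA-G3-5-SMART and G-C9-5-SMART came nearest from inside, with foot muscle minus the highest section at -0.05 and -0.43. The 2 sequences dropped there, Plate-B-E3-5-SMART and Contig[0113], had 1.2 and 2.09.

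**Figure D4:**
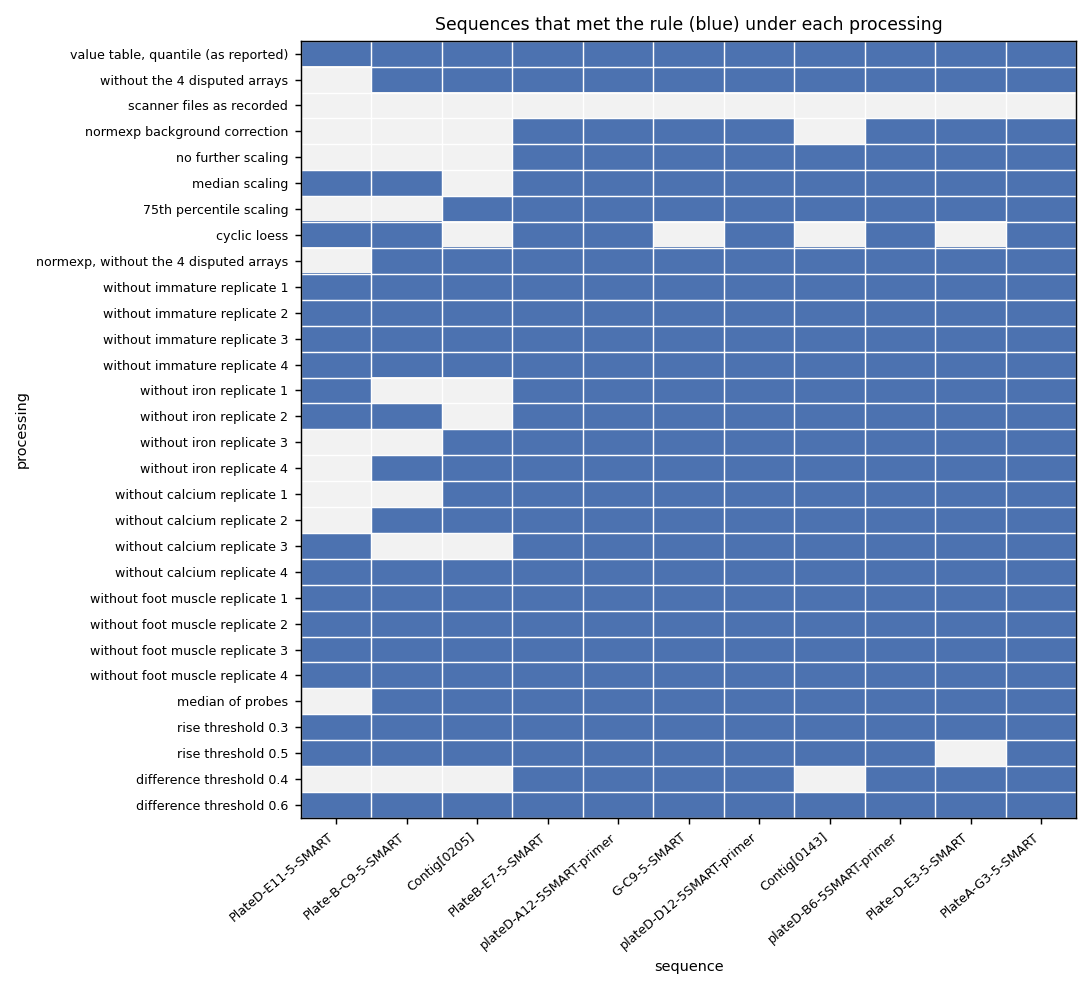
Sequences that met the rule (blue) for each of the 11 members (horizontal axis) under the reported processing and 29 alternatives (vertical axis). PlateD-E11-5-SMART, Plate-B-C9-5-SMART and Contig[0205] drop out most often, and with the scanner files as recorded none of the 11 meets the rule.

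Membership was least stable for the members with the widest rises. PlateD-E11-5-SMART met the rule in 17 of 29 alternatives, and Plate-B-C9-5-SMART and Contig[0205] in 20 each, because their iron and calcium means lay near 0.5 apart. Leaving out iron replicate 3 or 4 or calcium replicate 1 or 2 took PlateD-E11-5-SMART past that limit. For Plate-B-C9-5-SMART it was iron replicate 1 or 3 or calcium replicate 1 or 3, and for Contig[0205] iron replicate 1 or 2 or calcium replicate 3. PlateB-E7-5-SMART, plateD-A12-5SMART-primer, plateD-D12-5SMART-primer, plateD-B6-5SMART-primer and PlateA-G3-5-SMART met it in 28 of 29, failing only with the scanner files as recorded. Among other sequences, Contig[0011] and Contig[0013] entered most often, in 6 alternatives each.

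Foot muscle, a tissue that makes no teeth, divided the members. On a line from the immature level at 0 to the mean of iron and calcium at 1, foot muscle lay below 0 in 3 members, from 0 to 0.5 in 5, and above 0.5 in 3. It lay lowest in Plate-D-E3-5-SMART at -0.39, Plate-B-C9-5-SMART at -0.37 and PlateB-E7-5-SMART at -0.28, where immature teeth were 1.2-, 1.65- and 1.2-fold above it. It lay at 0.01 in PlateD-E11-5-SMART, 0.03 in plateD-B6-5SMART-primer and 0.08 in plateD-A12-5SMART-primer, next to the immature level. Contig[0205] and Contig[0143] had 0.31 and 0.35. It lay nearer the mineralising sections in plateD-D12-5SMART-primer at 0.53, G-C9-5-SMART at 0.59 and PlateA-G3-5-SMART at 0.95.

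**Figure D5:**
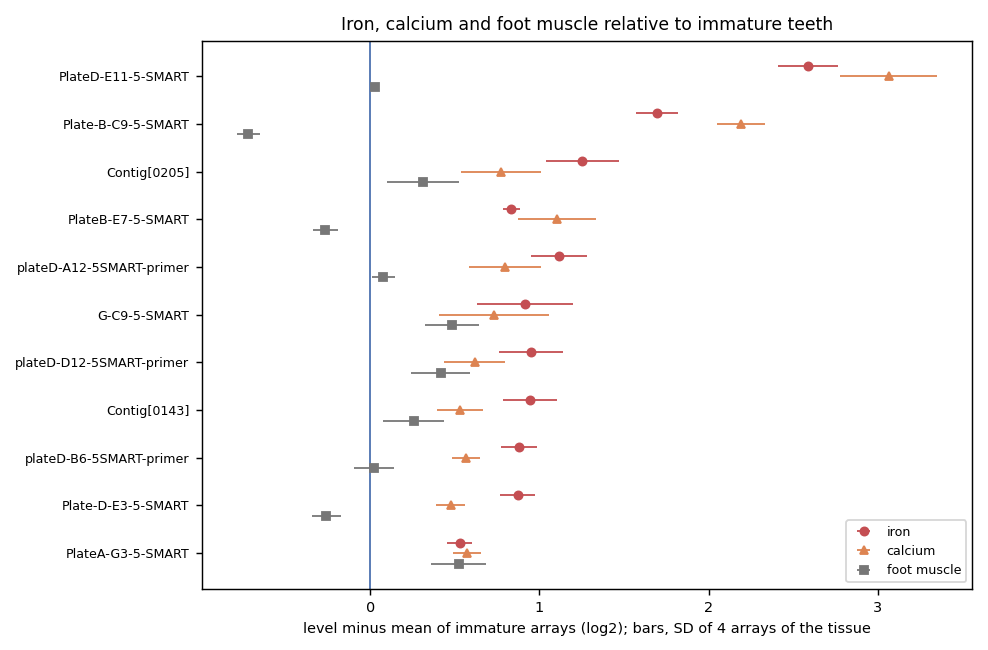
Mean level in iron, calcium and foot muscle minus the mean of immature arrays (horizontal axis, log2, bars are the SD of the 4 arrays of each tissue) for each of the 11 sequences (vertical axis). Foot muscle lies left of the immature line in Plate-B-C9-5-SMART, PlateB-E7-5-SMART and Plate-D-E3-5-SMART and beside iron and calcium in PlateA-G3-5-SMART.

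Against foot muscle, 10 of the 11 members were called higher in iron, where 18.3% of all sequences were, and 8 higher in calcium, where 12.8% were. With the replicate number as a block, 10 were called higher in calcium, G-C9-5-SMART and plateD-D12-5SMART-primer being added. Calls over all sequences in this comparison, in either direction, then rose as well, from 213 to 305. PlateA-G3-5-SMART was called in neither section, at 0.01 in iron and 0.05 in calcium above foot muscle, and the first of these was below 0 in 5 of 23 alternatives, the scanner files as recorded left aside, and the other in 1. Between immature teeth and foot muscle 8 members were called, where 61.9% of all sequences were, 3 of them higher in immature teeth (15.6% of all) and 5 lower (46.2% of all). All 5 calls of lower levels were lost with median scaling, where 1 member was called higher and 0 lower, and with cyclic loess, where 2 were called higher and 0 lower. The rule drew on foot muscle, so these counts are descriptions as well. The median difference of immature teeth from foot muscle over all sequences was -0.12, and from -0.41 to -0.02 under the other scalings, so small differences from foot muscle move with the scaling. The next values leave aside the scanner files as recorded. That of PlateB-E7-5-SMART, 0.27, was negative without further scaling and with 75th percentile scaling, reaching -0.06. That of G-C9-5-SMART, -0.48, was positive with median scaling and cyclic loess, reaching 0.21. That of PlateD-E11-5-SMART, -0.03, was positive without the disputed arrays, reaching 0.03 with normexp on the undisputed ones, a setting chosen after seeing the data. That of plateD-B6-5SMART-primer, -0.02, was positive in 3 of the fits that left out 1 array, by at most 0.01. With the scanner files as recorded, the difference was 1.51 in PlateD-E11-5-SMART, 0.28 in plateD-A12-5SMART-primer, 0.25 in plateD-B6-5SMART-primer and 0.08 in Contig[0205], all 4 of which were negative in the value table.

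Features that the rule did not use are given without a test. The member sequences were 183 to 843 nt long with a median of 416, beside a median of 606 over all 493. The GC content of their probes had a median of 39.9%, with a range of 34.0% to 51.4%, beside 41.8% over all sequences. Among the 11 were 2 of the 109 contigs, 3 of the 37 clones whose names end in primer and 6 of the 347 other clones. In the spread between arrays, the median SD of the members was 0.09 in immature, 0.16 in iron, 0.18 in calcium and 0.12 in foot muscle arrays. Over all sequences and tissues it was 0.08.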

How the data were processed

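Per the labels' protocols, Trizol-extracted total RNA was labelled with Cy5 using the Kreatech ampULSe kit. The scanner tables hold foreground intensity per spot on a linear scale, per the file headers, with no background column. The values deposited in the authors' table are a ratio, the mean foreground of a probe over the mean of its array, recovered by setting each column against the scanner files. For the software that read the scans: not given in the sources used here. Median foreground per array was 200 to 426 units, and at most 2 probes per array were at the maximum of 65535. With 4 arrays per tissue, their number limits the precision.

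The table was log2-transformed, quantile-normalized and averaged per sequence, and 16 arrays were fitted with a mean per tissue in limma 3.58.1 (R 4.3.3), two-sided, with Benjamini-Hochberg adjustment over 493 sequences. The fit was tried on simulated sequences with independent noise on each array, and the rule on constructed cases. This checks the calculation and says nothing about correlated or disputed arrays. The value table was used as the main source, in place of the scanner files, because the rule is defined on it. The members, classes and alternatives were chosen with earlier results of these data known. Members given in full were the 6 with the largest mean rise and those with the highest and lowest foot muscle position, and all others are given by means or counts. Deviations from tissue means correlated between arrays of the same replicate number at 0.237 to 0.772 in every pair of tissues except immature and calcium, where they ranged from -0.00946 to 0.588. The numbers were therefore taken to pair the arrays, from the data alone, in the 5 other comparisons. The reported fit did not use this pairing, and the replicate number entered only as a block in an alternative fit. Within a replicate number, each tissue carried a different recorded array number in the scanner files. What else the arrays of one replicate number had in common was not tested. Whether pools of one number held the same animals is unstated in the labels, so p-values measure the spread between arrays. The probe sequence of 1 member is not reported here.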

Additional observations from a re-analysis of the deposited data

How the results depend on the processing

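Of 29 alternatives for the rule, the count of sequences that met it left the range of 8 to 16 with the scanner files as recorded (0) and with a limit of 0.4 between iron and calcium (7), and leaving out 1 array gave 10 to 12. With the scanner files as recorded, 4 of the 11 members were called between iron and immature teeth, 0 between calcium and immature teeth (limma; 0 also at an unadjusted p under 0.05), 4 between calcium and iron, and, against foot muscle, 2 for immature and 2 for calcium teeth. The calcium minus immature difference was then -0.12 in Plate-B-C9-5-SMART, -0.0035 in Contig[0205], -0.021 in PlateB-E7-5-SMART and -0.0011 in PlateA-G3-5-SMART. The 9 calls between calcium and iron became 5 without the 4 disputed arrays, 3 with normexp on the undisputed arrays (added after seeing the data), 3 without further scaling, 2 with median and 2 with 75th percentile scaling, and 4 with probes tested singly. The 8 between immature teeth and foot muscle became 4, 5, 4, 1, 3 and 3 in the same settings, 2 with cyclic loess and 5 with the median of probes. The 8 between calcium teeth and foot muscle became 5 with 75th percentile scaling. Between calcium and immature teeth 8 were called with median scaling and 10 without further scaling, with 75th percentile scaling, with cyclic loess and with probes tested singly, and between iron and immature teeth 10 with median and with 75th percentile scaling. Leaving out 1 array gave 11 in both comparisons with immature teeth, 7 to 9 for calcium against iron, and 6 to 8, 9 to 10 and 7 to 8 for immature, iron and calcium teeth against foot muscle. Cyclic loess turned the calcium difference of G-C9-5-SMART to -0.023, and the cause was not tested. With the replicate number as a block the members called were 11, 11, 9, 8, 10 and 10 in the 6 comparisons. The count thus changed only for calcium teeth against foot muscle, where 2 were added and calls over all sequences rose from 213 to 305.

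Over all 493 sequences, calls in the 6 comparisons changed by over 1.5 times with some scalings. They numbered 149 between iron and immature teeth (58 as recorded, 96 without further scaling), 189 between calcium and immature (0 as recorded, 111 with median scaling) and 166 between calcium and iron (58 as recorded, 87 with median scaling). Against foot muscle they numbered 305 for immature, 345 for iron and 213 for calcium teeth, and 109, 98 and 55 without further scaling. Calls higher in calcium than in iron were 58.4% of the calls, and 39.1% with median scaling and 42.5% with cyclic loess. Those higher in calcium than in immature teeth were 64% of the calls, and 46.8% and 49.4% in these settings. Those higher than in foot muscle were 25.2% for immature, 26.1% for iron and 29.6% for calcium teeth, and under the other scalings 45.9% to 65.9%, 47.5% to 62.9% (16.8% with 75th percentile scaling) and 60.4% to 75.4%. No background was measured, which limits what dim probes can show.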
